A study of Mus musculus with 2 samples.

Results

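The peaks described here are those that the authors' annotation assigned to a gene of the 4 mouse Hox clusters. They were chosen by gene symbol alone (Hoxa, Hoxb, Hoxc or Hoxd followed by a number), and they were 36 of the 99782 annotated peaks. Antisense and host transcripts with longer names, such as Hoxa11os, are not among them. The study mapped chromatin in the hippocampus of C57BL/6J mice of genotype CamK-PARIS by CUT&Tag, in which an antibody tethers the transposase Tn5 to its target and Tn5 cuts the DNA nearby. Of its 2 libraries, 1 was made with an antibody to the FLAG tag, used to pull out PARIS, and the other with control IgG. Both came from the same genotype, and neither received a treatment. The labels do not describe the transgene beyond its name, and they give neither the age nor the number of the animals. With 1 library per antibody there is no replicate error, no difference between antibodies could be tested, and all values below describe the anti-FLAG peak list that the authors called against IgG.

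Hox genes encode homeodomain transcription factors that give cells of the trunk, limbs and hindbrain their position along the body axis. Within a cluster the genes stand in the order in which they are expressed from head to tail, from paralog group 1 at the anterior end to group 13 at the posterior end. Many of their starts lie in CpG islands and are textbook targets of Polycomb repression, and in the forebrain, which includes the hippocampus, they are known to be silent. PARIS is a KRAB zinc-finger repressor encoded in the mouse by Zfp746. No RNA was measured here, so neither their silence nor the labelled tissue could be checked. A low signal from few cells and a low signal in all cells cannot be told apart in bulk tissue.

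The 4 highest Hox peaks with a summit are shown first because they differ widely in CpG content. Each line gives up to 200 bases of the peak on mm10, in the direction of the gene, with every CpG in capitals. The windows leave out annotated UTRs, so that of Hoxd3 lies just upstream of the summit, which is inside an annotated UTR.
Hoxc6 peak, chr15:102998664-102998863, + strand: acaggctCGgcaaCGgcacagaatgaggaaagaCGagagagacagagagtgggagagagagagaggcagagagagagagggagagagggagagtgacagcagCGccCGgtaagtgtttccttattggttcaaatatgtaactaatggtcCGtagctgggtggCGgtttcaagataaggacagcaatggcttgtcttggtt
Hoxc5 peak, chr15:102967312-102967511, + strand: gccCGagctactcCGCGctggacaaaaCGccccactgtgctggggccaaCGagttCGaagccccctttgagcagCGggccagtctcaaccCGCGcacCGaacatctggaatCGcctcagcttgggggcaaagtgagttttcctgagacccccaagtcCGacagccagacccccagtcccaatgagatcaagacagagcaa
Hoxd3 peak, chr2:74745474-74745673, + strand: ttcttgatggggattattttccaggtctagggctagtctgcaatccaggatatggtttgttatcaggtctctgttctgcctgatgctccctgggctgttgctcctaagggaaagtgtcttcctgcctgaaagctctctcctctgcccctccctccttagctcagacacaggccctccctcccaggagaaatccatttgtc
Hoxb8 peak, chr11:96283593-96283792, + strand: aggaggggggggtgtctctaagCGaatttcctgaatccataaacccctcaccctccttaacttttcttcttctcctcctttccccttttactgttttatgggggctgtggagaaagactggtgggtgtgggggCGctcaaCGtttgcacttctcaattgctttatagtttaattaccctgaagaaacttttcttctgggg
The Hoxc6 window held 7 CpGs, with a CpG observed/expected ratio of 0.65, and the Hoxc5 window held 12, with a ratio of 0.66. The Hoxb8 window held 3 and the Hoxd3 window 0. These windows thus ranged from CpG-bearing to CpG-free sequence.

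For comparison, the next lines show 2 CpG-dense Hox regions under low peaks and, for 2 CpG-dense genes without a peak nearby, the 200 bases upstream of the start. CpGs are again in capitals.
Hoxa13 peak, chr6:52260881-52260994, - strand: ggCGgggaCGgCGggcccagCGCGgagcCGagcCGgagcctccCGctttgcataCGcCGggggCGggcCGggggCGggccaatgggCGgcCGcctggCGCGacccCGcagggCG
Hoxa11 peak, chr6:52245461-52245660, - strand: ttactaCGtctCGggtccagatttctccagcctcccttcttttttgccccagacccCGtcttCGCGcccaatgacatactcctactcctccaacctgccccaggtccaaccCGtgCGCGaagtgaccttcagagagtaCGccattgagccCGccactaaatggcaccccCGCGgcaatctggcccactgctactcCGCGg
Hoxa5 upstream, chr6:52204588-52204787, - strand: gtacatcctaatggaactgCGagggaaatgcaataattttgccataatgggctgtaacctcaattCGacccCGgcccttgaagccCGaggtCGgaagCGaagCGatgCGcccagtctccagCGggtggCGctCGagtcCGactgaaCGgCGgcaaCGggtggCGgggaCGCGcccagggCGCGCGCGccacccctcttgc
Hoxd13 upstream, chr2:74668110-74668309, + strand: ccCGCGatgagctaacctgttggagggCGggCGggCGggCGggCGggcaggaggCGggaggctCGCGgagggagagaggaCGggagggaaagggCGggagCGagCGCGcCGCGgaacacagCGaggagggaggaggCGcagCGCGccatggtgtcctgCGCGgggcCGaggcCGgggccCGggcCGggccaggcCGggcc
The Hoxa13 stretch of 114 bases, directly upstream of the gene start, held 19 CpGs and the Hoxa11 stretch 14. The upstream windows of Hoxa5 and Hoxd13 held 22 and 28 CpGs, with ratios of 1.09 and 1.0. The nearest peak lay 14187 bp from the Hoxa5 start and 6095 bp from the Hoxd13 start.

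The share of Hox gene starts with a peak lay below that of CpG-rich starts in general. Of the 39 Hox genes, 11 (28.2%, 95% Wilson interval 16.5 to 43.8) had a peak whose edge lay within 1 kb of the annotated gene start, against 39.3% of the 21938 protein-coding genes. The start was called CpG-rich when the 1 kb centred on it had at least 50% GC and a CpG observed/expected ratio of at least 0.6. Among CpG-rich starts the share was 59.8% over all 9740 genes. Among the 24 CpG-rich Hox starts it was 25% (6 starts, interval 12 to 44.9), and among the 15 other Hox starts 33.3% (5 starts, 15.2 to 58.3). Starts that are not CpG-rich had a peak in 23.0% of all genes. The intervals cover counting error only and treat starts as independent, while Hox neighbours can share a peak, as Hoxc10 and Hoxc5 did. No test was made of these differences.

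The share of starts with a peak was also set against the CpG ratio. Over all protein-coding genes the share of starts with a peak rose from 8.75% at ratios below 0.2 to 46.0% between 0.4 and 0.6, 56.2% between 0.6 and 0.8 and 62.6% between 0.8 and 1.0. Hox genes had 3 of 10 starts with a peak between 0.4 and 0.6, 5 of 18 between 0.6 and 0.8 and 2 of 7 between 0.8 and 1.0. Weighting the shares of all genes to the ratios of the 39 Hox starts gave 50.9%, beside the 28.2% observed. Hox starts with a peak had a median ratio of 0.70 (n = 11, range 0.29 to 0.93) and those without one 0.65 (n = 28, range 0.18 to 0.99), so the ranges overlapped. For all protein-coding genes the medians were 0.72 with a peak and 0.32 without.

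**Figure D1:**
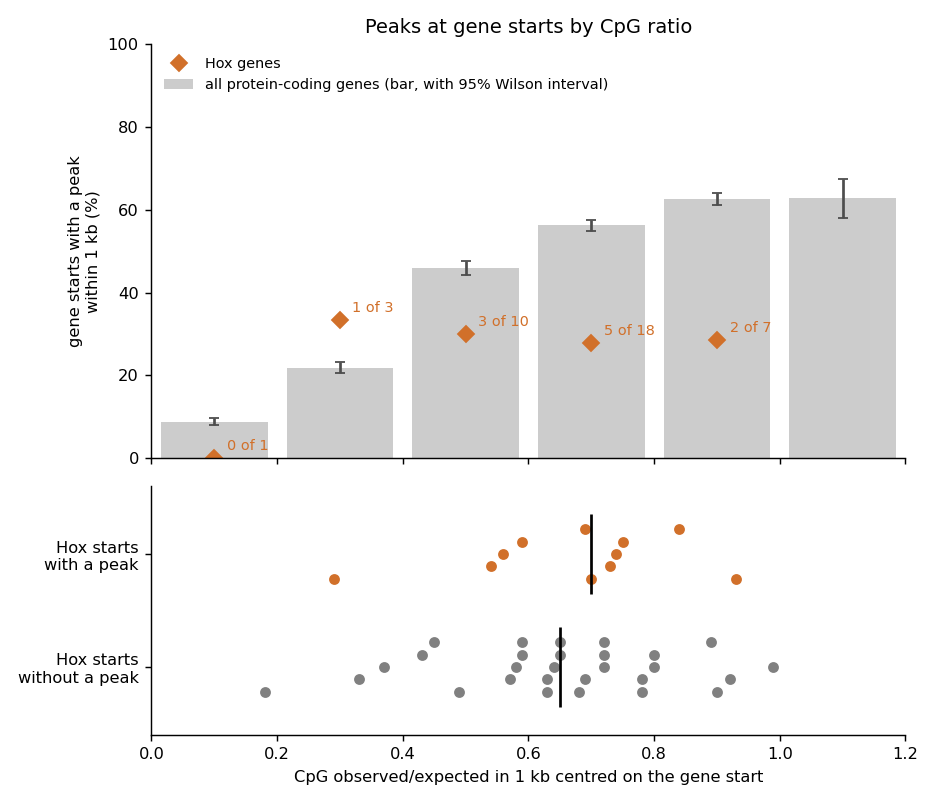
The upper panel plots the percentage of gene starts with a peak within 1 kb against the CpG observed/expected ratio of the start, for all protein-coding genes (grey bars with 95% Wilson intervals) and for Hox genes (diamonds, with counts). The lower panel shows the ratio of each Hox start, with the median as a black line. Hox genes have 3 of 10, 5 of 18 and 2 of 7 starts with a peak from a ratio of 0.4 upwards, while the share of all genes rises to 62.6% between 0.8 and 1.0.

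Peaks at Hox starts were also described by their shape. Most peaks of the list are rectangles of constant height, meaning that the total signal is at least 99% of maximum signal times width. What made these rectangles is not given in the sources used here, and they were the sole kind of peak at 6 of the 11 Hox starts with one. Over the whole list they were at most 701 bp wide, while peaks of any kind reached 6161 bp. Whether their height measures signal as a summit does was not tested. The remaining peaks of the list, here called peaks of variable height, have a summit. A peak of variable height lay within 1 kb of 5 Hox starts (12.8%, interval 5.6 to 26.7), against 27.8% of all protein-coding starts. Among CpG-rich starts 1 of 24 Hox genes had one (4.17%, 0.7 to 20.2), against 44.7% of all genes. That gene was Hoxc13, a regulator of hair and nail formation, where the peak reached a maximum signal of 55. The other 4 missed the CpG-rich cut. Hoxc10, Hoxc5 and Hoxc6 had ratios of 0.59, 0.56 and 0.54, and Hoxb8 had 0.74 but 45.3% GC. Between ratios of 0.4 and 0.6, 3 of 10 Hox starts had such a peak, against 31.8% of all genes. There were 2 of 18 between 0.6 and 0.8, against 41.3%, and 0 of 7 between 0.8 and 1.0, against 47.8%. The count of 1 in 24 thus depends on the cut. A peak of either kind overlapped the start itself in 5 Hox genes (12.8%) and in 20.4% of all genes. Among them were Hoxa11, Hoxa13, Hoxc13 and Hoxc5, and the peaks of Hoxa11 and Hoxa13 were of constant height.

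Signal at the annotated Hox gene starts was mostly low. The highest maximum signal within 1 kb had a median of 64 over the 11 Hox starts with a peak, with a range from 22 to 300, against a median of 136 over the 8631 protein-coding starts with a peak. Hoxc6, Hoxc5 and Hoxc10 lay above that median, and the latter pair shared 1 peak of 211. The other 8 starts lay below it, with the lowest, 22, at Hoxc11. The 6 CpG-rich Hox starts with a peak were all among these 8, with a median of 53. No interval was taken for the median of 64, the range of the 11 values spans 136, and the difference was not tested.

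**Figure D2:**
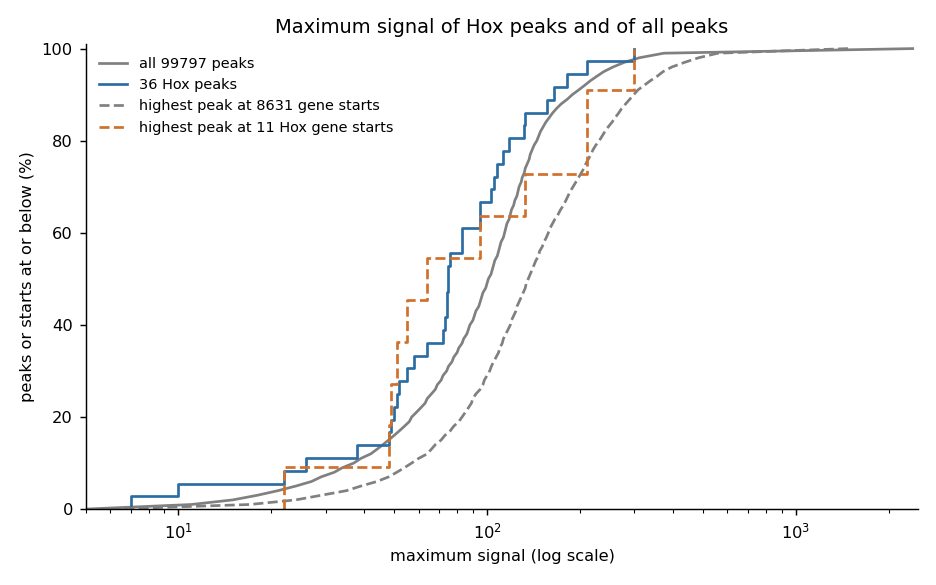
The curves give the percentage of peaks (solid) or of gene starts with a peak (dashed) at or below each maximum signal, on a logarithmic x axis, for Hox genes in colour and for all genes in grey. The Hox peaks have a median of 75 against 101 for all peaks, and the highest peaks at the 11 Hox starts a median of 64 against 136.

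By paralog group, the anterior genes (groups 1 to 3), which pattern the hindbrain, had a peak at 1 of 8 starts. Central genes (groups 4 to 8), which pattern the cervical and thoracic trunk, had one at 5 of 15, namely Hoxb7, Hoxb8, Hoxc4, Hoxc5 and Hoxc6. Posterior genes (groups 9 to 13), which pattern the lumbar and tail regions, the limbs and the urogenital tract, had one at 5 of 16, namely Hoxa11, Hoxa13, Hoxc10, Hoxc11 and Hoxc13. With 8 to 16 genes a group, the Wilson intervals of these shares, 2.2 to 47.1%, 15.2 to 58.3% and 14.2 to 55.6%, overlapped.

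By cluster, the shares of annotated gene starts with a peak ranged from none to most. Hoxc genes had a peak at 6 of 9 starts (66.7%, interval 35.4 to 87.9), Hoxa at 3 of 11 (27.3%, 9.7 to 56.6), Hoxb at 2 of 10 (20%, 5.7 to 51.0) and Hoxd at 0 of 9 (upper limit 29.9%). The Hoxd starts were CpG-rich in 7 of 9 genes, with a median ratio of 0.72, and the Hoxc starts in 5 of 9, with a median of 0.65. The Hoxd3 and Hoxd4 starts lie 2 bp apart and are counted as 2 starts. Peaks of variable height lay at 4 of 9 Hoxc starts, 1 of 10 Hoxb starts and 0 in Hoxa and Hoxd. These counts depend on the choice of start. Peaks of variable height of 181 and 108 lay within 1 kb of alternative starts of Hoxd3 and Hoxd11. No difference between clusters was tested.

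**Figure D3:**
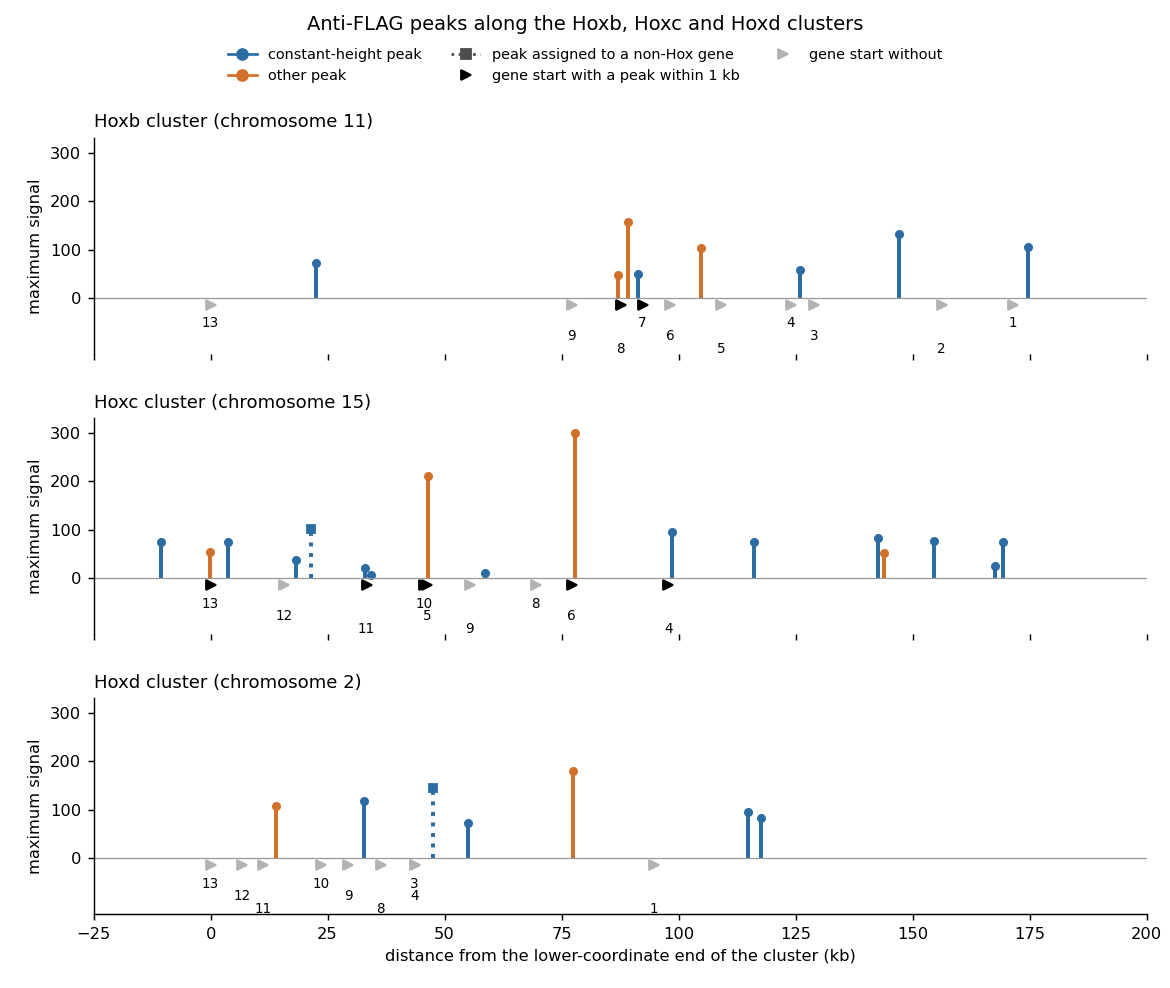
Each panel is 1 of the Hoxb, Hoxc and Hoxd clusters, with distance in kb from its lower-coordinate end on the x axis, the maximum signal of each peak as a vertical line and the gene starts as triangles labelled by paralog number, pointing along transcription. Orange lines are peaks of variable height, blue lines peaks of constant height, and dotted lines peaks assigned to a non-Hox gene. The Hoxc13 peaks of 165 and 113 lie outside the plotted range. The tallest lines, 300 and 211, stand in the Hoxc cluster, and a gap of 64161 bp without a peak spans the Hoxb9 start.

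The Hoxc cluster (chromosome 15, 102921103 to 103036852 on mm10) held the tallest Hox peaks. The tallest, at 102998637 to 102999298, had a maximum signal of 300, which was above 97.7% of all peaks in the list. Its summit lay in an exon of a Hoxc6 transcript without coding sequence, 454 bp downstream of the assigned start. Hoxc6 is a central paralog with roles in thoracic patterning and mammary development. The peak of 211 at 102967267 to 102967992 overlapped the annotated start of Hoxc5, and its summit lay in a coding exon of Hoxc10, so it cannot be credited to either gene alone. The Hoxc10 start was 471 bp from it, although the authors' table assigned no peak to Hoxc10. The Hoxc13 peak of 55 (102920661 to 102921133) overlapped its gene start. Hoxc11, a posterior paralog active in the hindlimb, had a peak of 22 directly upstream of its start and one of 7 inside its intron, which was higher than only 0.1% of all peaks. Hoxc9 had a peak of 10 in an intron and Hoxc12 one of 38, both more than 2 kb from the assigned start. Hoxc4 had a peak of 95 at 103019723 to 103019843, 791 bp downstream of the assigned start. Hoxc8 had no assigned peak, and the nearest lay 8030 bp from its start. The annotated Hoxc5 gene runs from inside Hoxc10 across Hoxc9, Hoxc8 and Hoxc6, so assignments among these genes are uncertain. Upstream of the cluster, peaks of 165 (102839864 to 102839990) and 113 (102865787 to 102866148), both of constant height and intergenic, were assigned to Hoxc13 at distances of -81115 and -54955 bp.

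In the Hoxb cluster (chromosome 11, 96194316 to 96368256) the peaks of variable height stood around Hoxb8 and Hoxb6. Hoxb8 is a central paralog also known for excessive grooming in its mutants. It had a peak of 157 in its intron (96282911 to 96283992) and one of 48 upstream (96281066 to 96281784), whose edge was 121 bp from the gene start. Hoxb6 had a peak of 103 in an intron (96298844 to 96299233) at an alternative start, 6368 bp from the annotated gene start. Hoxb7 had a peak of 49, which filled 99.1% of its rectangle and so was only just of constant height. Hoxb3 had a peak of 132 in an exon of a non-coding transcript, Hoxb1 one of 105 beyond the end of the gene, Hoxb4 one of 58 in a UTR, and Hoxb13 one of 73 at 22505 bp from its start. Hoxb2, Hoxb5 and Hoxb9 had none assigned. The longest gap between peaks, 64161 bp, held the start of Hoxb9, and 5.2% of the gaps on chromosome 11 were longer.

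The Hoxd cluster (chromosome 2, 74668310 to 74765142) had its highest peaks away from the annotated gene starts. The peak of 181 assigned to Hoxd3 (74745336 to 74746221) overlapped an alternative start of Hoxd3, which acts in the neck vertebrae. The gene start of Hoxd3 lies far upstream, 2 bp from that of Hoxd4, and the nearest peak was 3912 bp from it. Hoxd11, a limb and vertebral regulator, had a peak of 108 (74681837 to 74682693) with its summit in a UTR and 16 bp from the assigned transcript start, 2280 bp from the gene start. Hoxd9 had a peak of 118 and Hoxd4 one of 72. Hoxd1 had peaks of 95 and 83, both more than 20 kb beyond its start in the intergenic region. Hoxd8, Hoxd10, Hoxd12 and Hoxd13 had none assigned.

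The Hoxa cluster (chromosome 6) had 4 assigned peaks, and all 4 were of constant height. Hoxa13, a regulator of digits and the genital tubercle, had one of 64 (52260493 to 52260994), and Hoxa11, which acts in the forearm and uterus, one of 51 (52245270 to 52245853). Both overlapped the start, with the middle of the summit in a coding exon. Hoxa4 had a peak of 50 in a coding exon, 1353 bp from its start. A stretch of 54869 bp without a peak (52190401 to 52245269) held the starts of Hoxa3, Hoxa4, Hoxa5, Hoxa6, Hoxa7, Hoxa9 and Hoxa10. On chromosome 6, 13% of the gaps between neighbouring peaks were longer, and the median gap was 11099 bp.

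Taking any annotated transcript start in place of the gene start raised the count to 15 of 39 Hox genes, by Hoxb3, Hoxb6, Hoxd3 and Hoxd11, against 47.6% of protein-coding genes. Within 500 bp of the gene start the count was 9, against 34.1%, and within 3 kb it was 17, against 49.4% of protein-coding genes.

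Taken over all 36 Hox peaks, a larger share lay near a TSS than in the list, while the share in distal intergenic sequence was 30.6%, against 31.9% of annotated peaks. Their maximum signal had a median of 75 (95% interval 58 to 103, quartiles 51.75 and 109.25, range 7 to 300), against a median of 101 and quartiles of 66 and 135 for all 99797 peaks. The interval contains the list's median. The maximum was above 101 for 12 of the 36 peaks (33.3%), against 49.8% of all. By maximum signal the top 10% of the list took in 2 of the 36, at Hoxc6 and Hoxc5. Constant height was found in 27 of the 36 (75%, interval 58.9 to 86.2), against 63.3% of the list. The authors' distance put 16 of them (44.4%, 29.5 to 60.4) within 1 kb of a TSS, against 15.3% of annotated peaks. Of the 9 peaks of variable height, 8 were within 1 kb of a TSS (88.9%), against 23.2% of such peaks in the list. The exception lay between genes, 30567 bp from Hoxc4, with a maximum signal of 52. Of the 27 of constant height, 8 were within 1 kb (29.6%, against 10.8%). The 39 Hox genes lie close together, in 491.8 kb of cluster sequence. How far this spacing raises the shares near a TSS was not tested. In all, 23 of the 39 genes had an assigned peak, against 71.0% of protein-coding genes. The assigned peaks were uneven, with 7 at Hoxc4 and 5 at Hoxc13, the outer genes of their cluster. Gene length and spacing were not matched in this comparison, so no lack of peaks is read from it.

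Peak density inside the clusters was close to that of their chromosomes. The 4 clusters span 491.8 kb and held 27 peaks, or 5.49 per 100 kb (exact Poisson interval 3.62 to 7.99), against 4.43 per 100 kb over the 4 chromosomes. By cluster the density was 7.78 in Hoxc (chromosome 15: 4.37), 5.70 in Hoxa (chromosome 6: 3.70), 5.16 in Hoxd (chromosome 2: 4.26) and 4.02 in Hoxb (chromosome 11: 5.66), and each chromosome's value lay within the interval of its cluster. Of the 36 Hox peaks, 13 had their middle outside the cluster bounds. Most of these belonged to Hoxc: 4 upstream of or at the Hoxc13 start, and 6 beyond the end of Hoxc4. The tallest of the 13 was the Hoxc13 peak of 165.

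Inside the clusters, 4 further peaks were assigned to non-coding genes. Of the pair near Hoxa11os, an antisense RNA at Hoxa11, one had a maximum signal of 168 and the other 76. The taller (52253432 to 52254026) was the single peak of variable height inside the Hoxa cluster, and it lay between the Hoxa11 and Hoxa13 starts in intergenic sequence. Hoxd3os1 had a peak of 146 and Hotair, a long non-coding RNA of the Hoxc cluster, one of 102. None of the 6 microRNA genes with a Mir name in the clusters (Mir10a, Mir10b, Mir196a-1, Mir196a-2, Mir196b and Mir615) had a peak within 1 kb, and the nearest distances ran from 2534 to 15902 bp. A further microRNA gene in the annotation, Gm44463 in the Hoxd cluster, had its start 50 bp from a peak of 118, the one assigned to Hoxd9. No share over all microRNA genes is given here, so nothing is read from these counts.

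Taken over all 36 windows, the sequence under Hox peaks was richer in GC than that under peaks in general, but near a TSS it was not. Windows of 200 bp around the middle of each summit had 54.2% GC ± 6.6 (SD over 36 windows), against 49% ± 8.9 over all peaks. Their flanks 1 kb away had 49.8%, so the windows exceeded their flanks by 4.4 percentage points, against 3.44 for all peaks. The 16 Hox windows within 1 kb of a TSS averaged 56.1% GC, against 57.5% for all peaks so placed. Their excess over the flanks was 3.94 points, against 8.06. The median CpG ratio of these 16 windows was 0.51, and that of all TSS windows 0.47. Beyond 1 kb of a TSS the 20 Hox windows averaged 52.7% GC, against 47.5% for all peaks so placed.

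The insulin response sequence, TATTTTT or TATTTTG on either strand, has been reported as a PARIS binding element. It was in 2 of the 36 Hox windows (5.56%, interval 1.54 to 18.1), against 9.97% of all 99707 windows on the assembled chromosomes. The 2 were the constant-height peaks at Hoxb3 (maximum signal 132) and Hoxc11 (22). None of the 9 peaks of variable height held it (interval 0 to 29.9%), against 7.04% of such peaks in the list, so nothing is read from that count. The Hoxb3 and Hoxc11 peaks lay within 1 kb of a TSS. There the share was 2 of 16 Hox windows (12.5%, 3.5 to 36), against 5.41% of all peaks so placed, so the direction turned and none is read from it. TGATNNAT, a site bound by Hox proteins together with Pbx cofactors, was in 1 Hox window (2.78%), that of the Hoxc4 peak of 75, against 7.62% of all. CACGTG, the E-box, was in 2 (5.56%, against 3.11%), and the core of the CTCF motif in none, against 1.84% of all. These are matches of letters in short windows and describe no binding.

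Gene lists chosen around the Hox genes were set beside them. The share of starts with a peak was 39.3% over all protein-coding genes and 59.8% over CpG-rich starts. Cofactors of the TALE class (Meis, Pbx and Pknox genes), which bind DNA together with Hox proteins and are also used in the brain, had a peak at 7 of 9 starts (77.8%, interval 45.3 to 93.7). The highest were at Meis3 (584) and Pknox2 (385), and Meis1 reached 184, while Pbx2 and Pknox1 had none within 1 kb. Developmental regulators of other tissues, such as Gata4 of the heart and Pax9 of the teeth, had a peak at 6 of 20 starts (30.0%, interval 14.5 to 51.9), and 2 of the 20 had one of variable height. Tbx3 reached 280 and the other 5 ranged from 50 to 127. Transcription factors of forebrain neurons had one at 9 of 16 (56.2%, 33.2 to 76.9), with Neurod2 at 180 and Emx2 at 179. Meis2 (156) stands in this list and in that of the cofactors. Housekeeping genes had one at 14 of 14 (78.5 to 100%). The median CpG ratios of these lists, 0.61, 0.62, 0.69 and 0.74, lay near the 0.68 of the Hox starts. The shares of Hox genes and of the developmental regulators were the 2 lowest of the 6 lists, Polycomb genes included, and no difference between lists was tested.

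**Figure D4:**
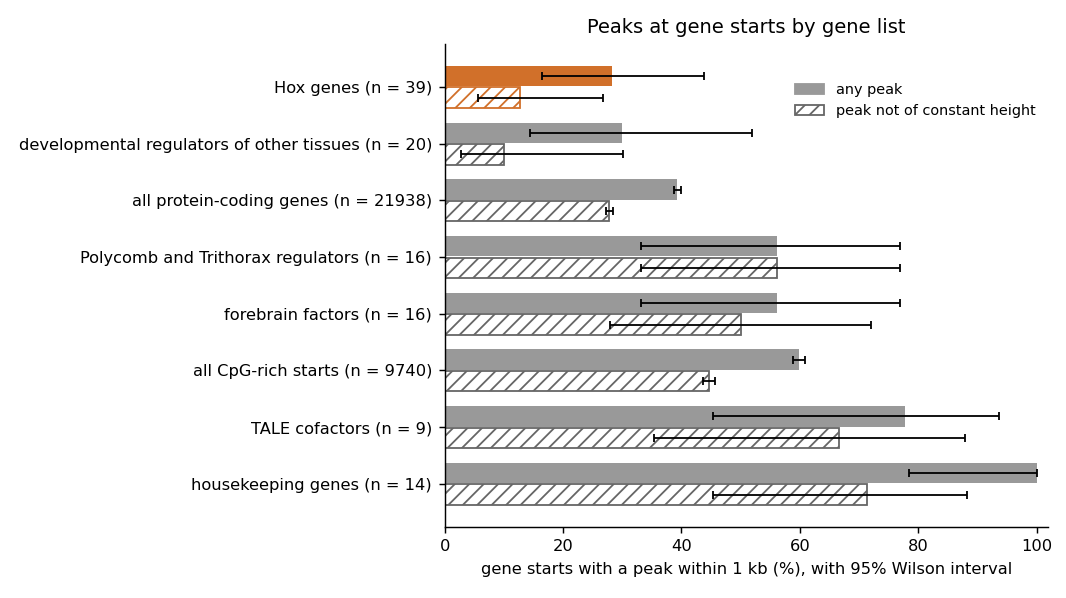
Bars give the percentage of gene starts with any peak within 1 kb (filled) and with a peak of variable height (hatched), with 95% Wilson intervals, for Hox genes (orange), the other lists and all protein-coding genes. Hox genes stand at 28.2% and 12.8%, beside 59.8% and 44.7% for all CpG-rich starts.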

How the data were processed

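Per the labels' protocols, trimmed read pairs were aligned by Bowtie2 (mm10), duplicates and poor alignments were dropped, and SEACR called the peaks, with IgG as its control. Versions, SEACR normalization and stringency are not given in the sources used here. The deposited peak list gives total and maximum signal (coverage) per peak in whole numbers. The depth is unknown. In the authors' deposited annotation table the signed distance to the TSS was handled as a score in bp. The tool behind that table is not given in the sources used here. The IgG library enters only through peak calling.

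Gene starts were those of GENCODE M21 and sequence that of GRCm38.p6, both of the mm10 build. Peaks were assigned as the authors' table does. CpG observed/expected was taken in 1 kb centred on each start. Intervals are 95% Wilson for shares and exact Poisson for densities. Python 3.11.15, numpy 2.4.6, pandas 2.3.3 and scipy 1.17.1 were used, and the functions were tested on simulated data. All 39 Hox genes were counted. Those with a peak within 1 kb of the start and the 10 highest Hox peaks were to be described, and the others were added after their values were seen. A few named genes are not reported here. The Hox genes, lists and measures were chosen with earlier results of these data known, and the TGATNNAT, CACGTG and CTCF searches and the weighting by CpG ratio were added after the files were seen. No tests were made. The alternatives were stricter peak sets, other distances, windows, starts and member rules.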

Additional observations from a re-analysis of the deposited data

How the results depend on the processing

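The 10 results were recomputed under 57 alternatives, of which 32 moved a value and 25 did not. A count was taken as moved beyond 1.5 times, other values outside the 95% interval. The stricter sets are smaller by their own definition, and otherwise the cause was not tested. Under peaks above the median by maximum signal, the 10% highest by maximum signal, the 10% highest by total signal, and peaks of variable height only, in this order, the Hox peaks were 12, 2, 4 and 9, the Hox genes with an assigned peak 11, 2, 4 and 8, and the Hox starts with a peak 4, 3, 3 and 5. The share of Hox peaks within 1 kb of a TSS was 66.7%, 100%, 100% and 88.9%, their median maximum signal 132.5, 255.5, 196 and 108, and the peaks per 100 kb of cluster 2.44, 0.41, 1.02 and 1.63. For the first 3 sets all protein-coding starts had a peak in 27.6%, 11.9% and 13.6%, and for the last in 27.8%. Such shares are not given here for genes with an assigned peak, nor for TSS distance in the first 3 sets. The values of the Hox peaks in these sets are therefore description only. The share of constant height was 50%, 0% and 0% in the first 3 sets, and the insulin response sequence was at 0% in the last 3. Within 3 kb, 17 Hox starts had a peak and 63.9% of Hox peaks were near a TSS. The CpG ratio of Hox starts with a peak exceeded that of starts without by 0.05, and by -0.09 with peaks of variable height only, within its interval, so no direction is read from it. Mean GC stayed between 53.6% and 56.2%. With peaks inside the clusters taken as members whatever their gene, 27 peaks had a median maximum of 76. One anti-FLAG library and an unknown depth limit every value.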

Other observations

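Polycomb and Trithorax proteins maintain the silent and active states of Hox genes. Of 16 genes for them, 9 (56.2%, 95% Wilson interval 33.2 to 76.9) had a peak within 1 kb of the start, and all 9 had one of variable height. The share was 39.3% over all protein-coding genes and 59.8% over CpG-rich starts, which 13 of the 16 have. It was thus near that of CpG-rich starts. A peak of variable height lay at 44.7% of CpG-rich starts, which is within the interval. The highest maximum signals were at Cbx8 (532) and Kdm6b (485), which encode a Polycomb chromobox protein and an H3K27 demethylase. Kmt2a, a Trithorax methyltransferase, reached 387. The Polycomb subunit genes Suz12, Rnf2 and Bmi1 had 236, 243 and 147, and Ezh2 had 48. Eed, Ezh1, Ring1, Cbx2, Cbx7, Kmt2b and Kdm6a had none within 1 kb. These starts had a median CpG ratio of 0.83, above the 0.68 of the Hox starts.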
